A study of Mus musculus with 12 samples.

Results

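The genes described here are 9 genes of primordial germ cell specification and identity, Prdm1, Prdm14, Tfap2c, Dppa3, Nanos3, Dnd1, Kit, Dppa2 and Dppa4. They were taken by name. Each listed gene part whose identifier is that of a member was kept, whatever its class (promoter, 5' untranslated region, exon, intron or 3' untranslated region). Of the 9 genes, 8 had a level, in 24 gene parts of the 82535 that the series lists, and 18 of the 24 had a level in all 12 libraries. Dnd1, an RNA-binding partner of Nanos proteins, had no gene part among them and its gene parts were not analysed here.

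The libraries were made by reduced representation bisulfite sequencing of mouse cells of strain C57BL6, a method that cuts DNA with MspI at CCGG and reads methylated cytosines after bisulfite treatment. There were 6 groups of 2 libraries. ESC was a female embryonic stem cell line and pESC a parthenogenetic one from strontium-activated oocytes, both carrying a β-Actin-GFP transgene and grown with feeder cells, serum and LIF. E9.5 PGC and E12.5 PGC were primordial germ cells of female embryos at those embryonic days, collected through the surface antigens SSEA1 and CD61 or SSEA1 alone. ESC-PGCLC and pESC-PGCLC were primordial germ cell-like cells induced from either line through 2 days as epiblast-like cells and 4 further days of induction. They were then sorted for SSEA1 and CD61. Before induction, by the paper's methods, the lines spent several passages in t2iL, a medium with a reduced amount of the inhibitor PD0325901. An effect of that medium on PGCLC levels cannot be told apart from one of induction here. The paper describes its RRBS data as 2 biological replicates. The labels do not say whether the libraries of a group came from separate cultures or litters. A p-value measures the spread between these libraries, and what that spread covers is not known. Methylation levels hold no expression marker, so the labelled cell types could not be checked against marker genes. By RNA-seq, not used here, the paper reports a similar pattern of early PGC marker expression in both PGCLC groups and both PGC groups. A level in a pool of cells cannot tell a mixture of methylated and unmethylated cells from partial methylation in each cell.

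Germ cells arise in the early embryo when BMP signals switch on Prdm1, Prdm14 and Tfap2c, transcription factors that silence the somatic programme and open the germline programme. Dppa3, Nanos3 and the receptor Kit then mark, protect and guide the young germ cells, and the paired genes Dppa2 and Dppa4 encode chromatin factors shared with pluripotent cells. On their way to the gonad germ cells lose most of their DNA methylation, whereas CpG islands, CpG-rich stretches at many gene starts, are mostly unmethylated in all cells.

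Not every member had a promoter level. Tfap2c, Dppa3, Kit and Dppa2 had a promoter level in all 12 libraries. Nanos3 had one in the 8 PGC and PGCLC libraries and in none of the ESC or pESC libraries, Prdm1 in 3 libraries (ESC 1, pESC 1 and ESC-PGCLC 2) and Prdm14 in 1 (pESC 1). Dppa4 had no promoter level and is described through its introns. The promoter definition was not given in the sources used here.

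The promoters of Kit, Prdm1 and Nanos3 were read in very different numbers of libraries. To show what sequence stands at a RefSeq start of each, the 250 bases before it on GRCm38.p6 are printed below. They run 5′ to 3′ on the strand of the gene, with each CG in capitals. The Kit window lies on the plus strand at chr5:75574737-75574986, the Prdm1 window on the minus strand at chr10:44458749-44458998 and the Nanos3 window on the minus strand at chr8:84176553-84176802. The last 2 lie inside the gene spans given by GENCODE M21, at internal starts. They do not reach the gene starts given there, 44528501 for Prdm1 and 84185217 for Nanos3. No window was printed for Prdm14, Tfap2c, Dppa3, Dppa2, Dppa4 or Dnd1.
Kit: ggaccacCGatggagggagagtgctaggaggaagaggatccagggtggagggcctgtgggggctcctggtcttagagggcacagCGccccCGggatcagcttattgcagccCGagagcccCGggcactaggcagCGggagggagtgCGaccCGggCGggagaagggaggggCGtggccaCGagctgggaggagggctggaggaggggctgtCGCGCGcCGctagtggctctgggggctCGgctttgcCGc
Prdm1: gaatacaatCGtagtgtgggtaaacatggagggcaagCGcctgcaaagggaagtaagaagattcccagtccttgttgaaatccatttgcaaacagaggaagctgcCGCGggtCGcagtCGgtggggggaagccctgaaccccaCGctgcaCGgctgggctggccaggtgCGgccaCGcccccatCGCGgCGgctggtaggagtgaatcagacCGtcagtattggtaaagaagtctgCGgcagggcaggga
Nanos3: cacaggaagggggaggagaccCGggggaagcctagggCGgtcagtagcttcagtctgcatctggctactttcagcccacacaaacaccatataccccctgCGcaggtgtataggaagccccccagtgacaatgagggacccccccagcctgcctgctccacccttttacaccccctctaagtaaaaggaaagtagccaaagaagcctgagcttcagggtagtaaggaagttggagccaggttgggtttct
The Kit window held 17 CpG and 3 CCGG, the Prdm1 window 15 CpG and 0 CCGG, and the Nanos3 window 3 CpG and 1 CCGG (read on both strands, since CCGG is its own reverse complement). Among the 32851 RefSeq windows of this length 47.1% held a CCGG, and the median window held 6 CpG. Over the whole gene spans, CpG density ran from 9.36 per kb in Dppa2 to 36.1 per kb in Tfap2c, and CCGG density from 0.822 to 4.54 per kb in the same genes. A count of letters does not show which sites were read.

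A level is the methylated share of the CG calls of a gene part, printed here in percent. The depth behind it is unknown, and differences are given in percentage points. A part was called different when its adjusted p was under 0.05 (limma on the log2 odds of the level, with p-values adjusted by Benjamini-Hochberg across every feature tested) and the group means were at least 10 points apart. Mean levels over the 133311 features with a level in all 12 libraries ran from 21.3% in ESC 2 to 36.5% in E9.5 PGC 1. The ESC libraries (25.9% and 21.3%) were farther apart than those of any other group. Parts of 1 gene share sequence and neighbourhood and are not independent of each other. Where libraries of groups are said below not to overlap, the share of all features that do likewise was not counted.

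The first question was how the members stood in germ cells taken from embryos against the stem cells from which germ cells are induced. Dppa3 and Dppa4 were under 7% in ESCs and above 60% in E9.5 PGCs in their introns, and the Dppa2 promoter went from under 5% to above 69%. Tfap2c, by contrast, had a promoter under 3% in all 12 libraries. In E9.5 PGC against ESC, 14 of 18 member parts were called, all higher, beside 42.1% of all 133311 features called higher. The median member difference was 25.7 points, beside 7.49 over all features. Over introns alone 60.6% were called in either direction, with a median difference of 14.8 points. E12.5 PGC against the same ESC libraries gave 9 of 18 called, all higher, beside 10.2% of all features called higher, with a median of 10.2 points beside 0.121. There 17.9% of introns were called in either direction, with a median difference of 0.140 points.

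Dppa3, also called Stella or PGC7, protects the maternal genome from loss of methylation after fertilisation and is a classic marker of primordial germ cells. Its promoter had 2.55% and 3.61% in ESCs, 1.85% and 3.33% in pESCs, 67.1% and 69.8% in E9.5 PGCs and 32.4% and 35.0% in E12.5 PGCs. The ESC-PGCLC libraries read 39.5% and 40.1%, and those of pESC-PGCLC 28.1% and 24.8%. The stem cell libraries all lay far below every germ cell library, and E9.5 PGCs lay far above the rest. The 2 PGCLC groups did not overlap, though limma did not call their difference. E9.5 PGC exceeded ESC by 65.4 points (log2 odds difference 5.69 ± 0.24 SE, limma adjusted p = 2.67e-07), and 99.0% of the 18456 promoters tested had a smaller difference. The introns of Dppa3 had 5.49% and 4.52% in ESCs, 68.0% and 68.2% in E9.5 PGCs and 31.7% and 34.5% in E12.5 PGCs. Its exons had 2.49% and 3.90% in ESCs, 52.0% and 50.6% in E9.5 PGCs and 25.1% and 27.2% in E12.5 PGCs. All 3 parts of this short gene (3863 bp, chr6:122626410-122630272, plus strand) rose in the order ESC, E12.5 PGC, E9.5 PGC, and all 3 were called higher in both PGC groups than in ESCs.

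Dppa2 and Dppa4 are neighbours on chromosome 16 (chr16:48303908-48319723 and chr16:48283733-48294237, both plus strand), and their proteins act as partners at CpG-rich promoters. The Dppa2 promoter had 3.29% and 4.05% in ESCs, 3.15% and 4.48% in pESCs, 70.5% and 69.1% in E9.5 PGCs and 47.1% and 48.1% in E12.5 PGCs. The ESC-PGCLC libraries read 53.9% and 49.6%, and those of pESC-PGCLC 45.1% and 42.7%. Stem cells and germ cells did not overlap, and at E9.5 the Dppa2 promoter overlapped that of Dppa3. The difference between E9.5 PGC and ESC was 66.1 points (log2 odds 5.57 ± 0.19 SE, limma adjusted p = 1.52e-07), larger than that of 99.1% of promoters. Its introns stood higher than its promoter in the stem cells, at 15.0% and 11.1% in ESCs and 15.7% and 14.1% in pESCs, and reached 72.8% and 71.3% in E9.5 PGCs.

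The introns of Dppa4 had 3.70% and 6.67% in ESCs, 1.61% and 4.89% in pESCs, 62.8% and 64.4% in E9.5 PGCs and 46.0% and 48.3% in E12.5 PGCs. ESC-PGCLCs had 57.7% and 54.0% there, and pESC-PGCLCs 45.3% and 41.1%. Germ cells of every group lay above every stem cell library, by 58.4 points in E9.5 PGC against ESC (log2 odds 4.79 ± 0.38 SE, limma adjusted p = 8.77e-06), more than 98.8% of the 18556 introns tested.

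How common this order was among all genes was then counted, with limits chosen after the member levels were seen. Of 18456 promoters with a level in all libraries, 309 (1.67%) had group means under 10% in ESC and pESC and of 50% or more in E9.5 PGC, and Dppa3 and Dppa2 were 2 of them. For introns the count was 212 of 18556 (1.14%), among them Dppa3 and Dppa4, while Dppa2 introns stood above 10% in both stem cell groups.

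**Figure D1:**
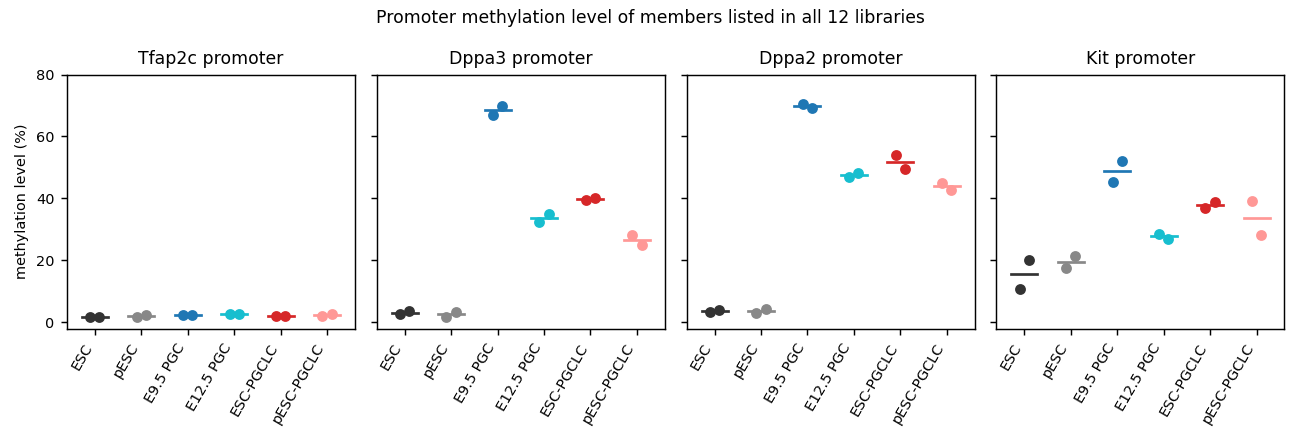
Methylation level in percent (vertical axis) of the promoters of Tfap2c, Dppa3, Dppa2 and Kit in the 6 groups (horizontal axis); each point is a library and each bar the mean of 2. Dppa3 and Dppa2 rise from under 5% in ESCs and pESCs to 67.1% or more in E9.5 PGCs, Kit runs from 10.9% to 52.2%, and Tfap2c stays between 1.71% and 2.68%.

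Kit encodes the receptor through which germ cells receive the survival and migration signal of Kit ligand. Its promoter had 10.9% and 20% in ESCs, 17.4% and 21.3% in pESCs, 45.3% and 52.2% in E9.5 PGCs and 28.7% and 27.0% in E12.5 PGCs. PGCLC levels were 37.0% and 38.7% from ESCs and 39.3% and 28.3% from pESCs. The germ cell libraries all lay above the stem cell libraries, and the pairs of ESC and pESC-PGCLC were spread wide. The Kit promoter was called higher in E9.5 PGC than in ESC by 33.3 points (log2 odds 2.36 ± 0.34 SE, limma adjusted p = 0.000369). E12.5 PGC exceeded ESC by 12.4 points (limma adjusted p = 0.0474). That call was lost when any 1 of 9 libraries was left out (ESC 1 or either library of pESC, E9.5 PGC, E12.5 PGC or ESC-PGCLC), with adjusted p from 0.0604 to 0.223, the highest without ESC 1.

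The Kit introns were methylated in every library. They had 29.3% and 30.2% in ESCs, 28.9% and 34.9% in pESCs, 54.4% and 55.4% in E9.5 PGCs and between 37.1% and 41.0% in the other germ cell libraries. E9.5 PGC was 25.1 points above ESC (limma adjusted p = 0.000106), and with each library centred on its own median the direction of this difference turned (log2 odds -0.36). That centring takes 1.85 log2 odds from this comparison, beside 0.68 for the median difference over all features. With each library centred instead on its median deviation from the feature means, chosen after seeing the data, 0.78 is taken out and the Kit introns stayed higher (log2 odds 0.71, limma adjusted p = 0.00838). A different level stood at the gene start itself. The CpG island at chr5:75574821-75576005, which covers the start of Kit and overlaps the window printed above, had between 1.18% and 2.49% in all 12 libraries, and the shore before it (the 2 kb beside an island) between 0.226% and 2.46%. The promoter level of Kit was thus above that of the island at its start in every library, and which CpGs each covers was not given.

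Prdm1 (Blimp1) is the repressor that sets aside the germline, and it spans 91325 bp (chr10:44437177-44528501, minus strand). Its promoter and 5' untranslated region were listed at 0 in the 3 libraries that had them. Prdm1 had between 1.93% and 6.76% at the shore over its annotated start, listed in 10 libraries. Its introns had 15.3% and 19.6% in ESCs, 19.2% and 22.2% in pESCs, 53.6% and 58.6% in E9.5 PGCs and 32.7% and 36.4% in E12.5 PGCs. The PGCLC libraries had 39.0% and 49.4% from ESCs and 39.6% and 37.7% from pESCs. No stem cell library overlapped a germ cell library there, and E9.5 PGC exceeded ESC by 38.6 points (log2 odds 2.53 ± 0.25 SE, limma adjusted p = 3.32e-05). Its exons had 33.6% and 17% in ESCs, a wide spread, and 43.4% and 42.2% in E9.5 PGCs. Limma called the difference from ESC (17.5 points, adjusted p = 0.0215), and lost the call without ESC 2 (adjusted p = 0.106), without E9.5 PGC 1 (adjusted p = 0.0847) or without E9.5 PGC 2 (adjusted p = 0.0703). With libraries centred on their medians the exon difference turned negative (log2 odds -0.67), and centred on their median deviations it was 0.40 (limma adjusted p = 0.371).

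A shore inside Prdm1 (chr10:44456549-44458549), beside the island of the internal start, went the opposite way from the introns. It had 35.7% and 17.4% in ESCs and 27.3% and 23.3% in pESCs, but 10.4% and 11.1% in E9.5 PGCs and 8.60% and 5.75% in E12.5 PGCs. The PGCLC libraries had between 10% and 11.6%, so every germ cell library lay below every stem cell library. Limma called it lower in E9.5 PGC than in ESC, by a difference of -15.8 points (adjusted p = 0.0109), and lower in E12.5 PGC, by -19.4 points (adjusted p = 0.00444). The first call was lost without ESC 1, when the difference fell below 10 points (log2 odds -0.76), and without E9.5 PGC 1 (adjusted p = 0.0524), and both were lost when the 4 libraries compared were fitted alone (adjusted p = 0.0757 and 0.0774). In ESC-PGCLC against ESC and pESC-PGCLC against pESC the same shore differed by -15.5 and -14.8 points without passing the threshold (limma adjusted p = 0.0579 and 0.0672). Of the 12 islands and shores at members with a level in all libraries, this shore alone exceeded 10% in any library.

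**Figure D2:**
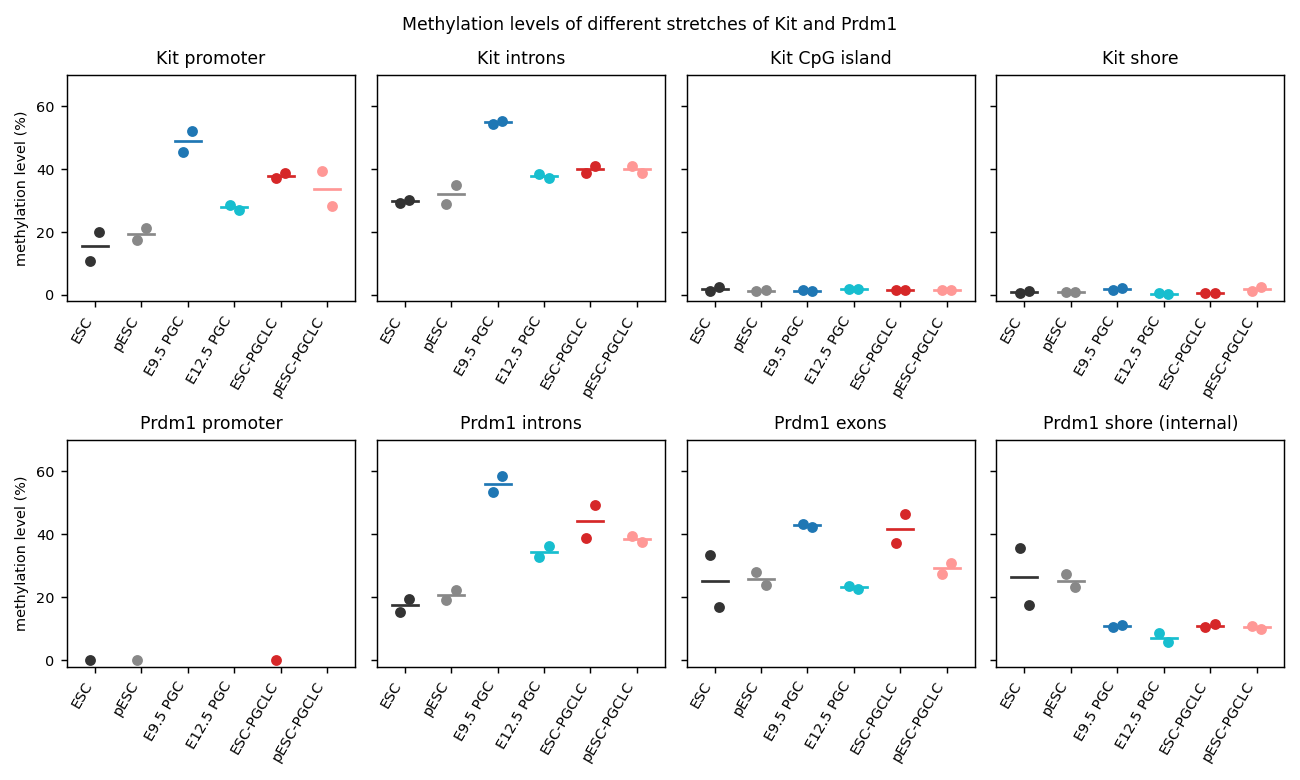
Methylation level in percent (vertical axis) of 4 stretches each of Kit (upper row) and Prdm1 (lower row) in the 6 groups (horizontal axis); points are libraries and bars means of 2. The Kit island and shore stay at or below 2.49% where the promoter class reaches 52.2%, and the internal Prdm1 shore is lower in germ cells where the introns are higher.

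Prdm14 and Tfap2c, the other early transcription factors, had smaller levels. Prdm14 restrains methyltransferase activity in pluripotent and germ cells. Its introns (chr1:13113457-13127163, minus strand) had 4.55% and 3.62% in ESCs, 3.21% and 3.80% in pESCs, 27.9% and 32.9% in E9.5 PGCs and between 15.9% and 17.7% in the other germ cell libraries. All germ cell libraries lay above all stem cell libraries. E9.5 PGC was 26.3 points above ESC (log2 odds 3.08 ± 0.18 SE, limma adjusted p = 1.47e-06). Its exons had 3.20% and 3.69% in ESCs and 14.9% and 15.3% in E9.5 PGCs, a difference of 11.6 points that was called (limma adjusted p = 2.37e-05). The only promoter level of Prdm14, in pESC 1, was 9.73%, and its island had between 1.33% and 2.78%.

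Tfap2c encodes the transcription factor AP-2γ, which works beside Prdm1 and Prdm14. The means of its promoter over the 6 groups spanned 0.943 points, its 5' untranslated region stayed between 1.56% and 2.86%, and its island between 1.67% and 2.70%. Limma called its promoter in 0 of the 12 comparisons, with 1 unadjusted p under 0.05, in E12.5 PGC against ESC (0.943 points, adjusted p = 0.126). Methylation in Tfap2c stood further into the gene (chr2:172549593-172558622, plus strand). Its exons had 6.58% and 9.14% in ESCs and 19.1% and 18.5% in E9.5 PGCs, called at 10.9 points (limma adjusted p = 0.000327), with the direction turned when libraries were centred on their medians (log2 odds -0.50), the call kept when they were centred on their median deviations (limma adjusted p = 0.0379) and the difference under 10 points without ESC 1. Its introns had between 12.1% and 24.7% and its 3' untranslated region between 15.5% and 35.7%, neither of them called in E9.5 PGC against ESC (limma adjusted p = 0.00384 with 8.88 points, and 0.129).

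Nanos3, an RNA-binding protein that keeps migrating germ cells alive, had low levels throughout. Its promoter (no ESC or pESC level) had 5.57% and 6.67% in E9.5 PGCs and 2.44% and 1.70% in E12.5 PGCs. PGCLC libraries had 6.25% and 4.91% from ESCs and 4.59% and 2.58% from pESCs. Its introns (chr8:84173731-84185217, minus strand) had 1.45% and 2.60% in ESCs, 11.8% and 13.0% in E9.5 PGCs and 6.08% and 5.73% in E12.5 PGCs. The intron difference of 10.4 points between E9.5 PGC and ESC was called (limma adjusted p = 3.50e-05) and fell under 10 points when ESC 1 or E9.5 PGC 2 was left out. Its island had between 1.02% and 2.87%.

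**Figure D3:**
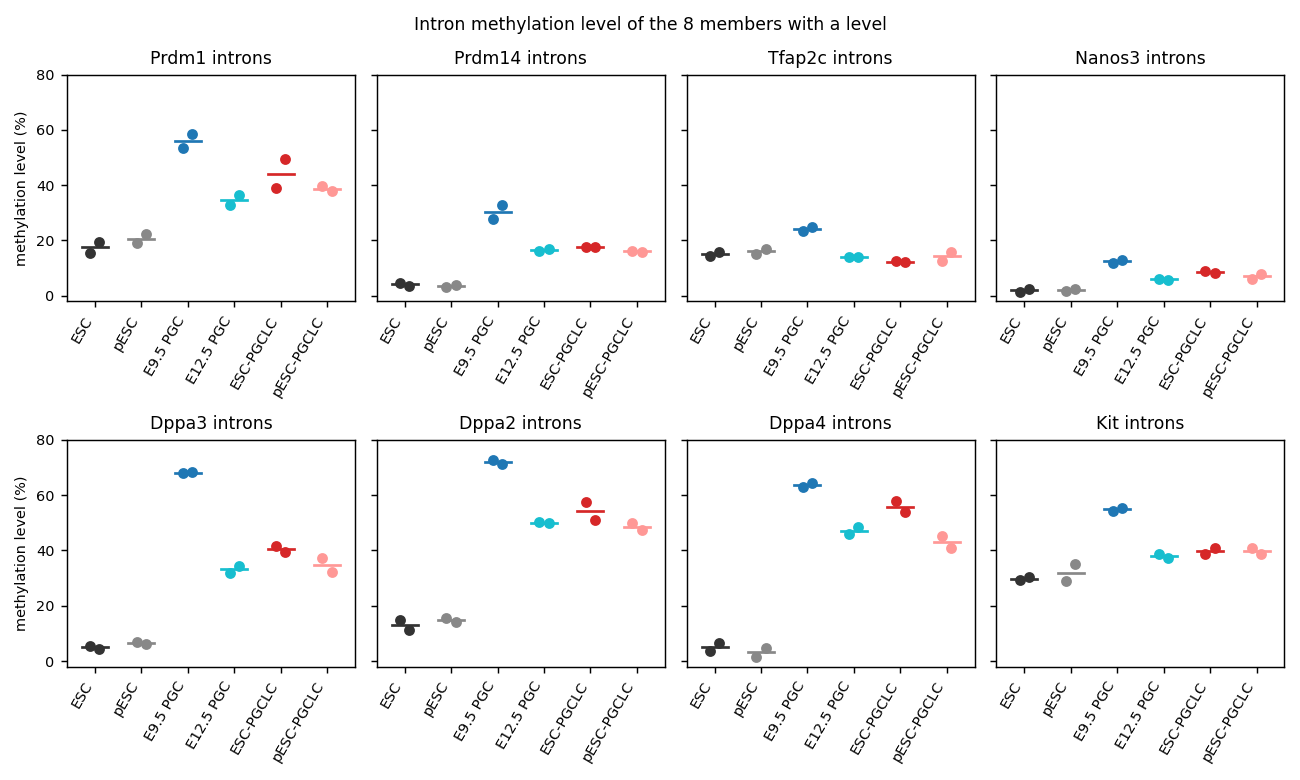
Methylation level in percent (vertical axis) of the introns of the 8 members with a level, by group (horizontal axis); points are libraries and bars means of 2. E9.5 PGCs hold the highest levels in all 8 panels, from 11.8% in Nanos3 to 72.8% in Dppa2, and Kit introns start from 28.9% in the stem cells.

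The next question was what happened in the embryo between E9.5 and E12.5. Of 19 member parts tested, 12 were called and all 12 were lower at E12.5, beside 49.6% of all 137202 features called lower. The median member difference was -16.5 points, beside -11.5 over all features and -16.6 over introns, of which 64.0% were called in either direction. Dppa3 led, whose promoter fell by 34.8 points (log2 odds -2.05 ± 0.13 SE, limma adjusted p = 7.96e-05) and whose introns fell by 35.0 points (limma adjusted p = 8.86e-05). The Dppa2 promoter fell by 22.2 points (limma adjusted p = 0.000200) and the Kit promoter fell by 20.9 points (limma adjusted p = 0.00493). The median difference over all features was -0.86 log2 odds. Centring each library on its median deviation from the feature means, which takes out -0.85, left 5 calls, the promoter, introns and exons of Dppa3 and the promoter and introns of Dppa2. Centring each library on its own median takes out -1.12. With it 3 of the 12 calls remained, the promoter, introns and exons of Dppa3, and the introns of Dppa4, Kit and Prdm14 and the 3' untranslated region of Tfap2c turned to log2 odds of 0.16, 0.14, 0.031 and 0.014. The last of these lost its call (limma adjusted p = 0.0300) when E12.5 PGC 1, E12.5 PGC 2 or E9.5 PGC 1 was left out (adjusted p from 0.0630 to 0.144). The Tfap2c promoter, already low, was 0.301 points higher (limma adjusted p = 0.473).

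The share of the E9.5 level still present was set beside other genes that were methylated at E9.5, a measure chosen after the levels were seen. Over the 4596 promoters at 50% or more in E9.5 PGC, the median promoter kept 65.1% of that level at E12.5, with quartiles of 59.2% and 70.3%. The Dppa3 promoter kept 49.2%, less than all but 7.22% of these promoters, and the Dppa2 promoter kept 68.1%. In ESC-PGCLCs the Dppa3 promoter stood at 58.2% of its E9.5 level, where the median promoter stood at 80.1% and 2.61% of promoters were lower. In pESC-PGCLCs it stood at 38.7%, where the median was 73.2% and 0.392% of promoters were lower. The Dppa2 promoter stood at 74.1% in ESC-PGCLCs and 62.9% in pESC-PGCLCs, where 23.5% and 13.4% of promoters were lower. Among 8969 introns chosen likewise, the Dppa3 introns kept 48.6% at E12.5 beside a median of 64.4%, and the Dppa4 introns kept 74.1%. The 3 groups share the E9.5 libraries as their reference. A gene enters by its E9.5 level, against which its share is then taken. These ranks restate the differences from E9.5 PGC and are not separate support for them.

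**Figure D4:**
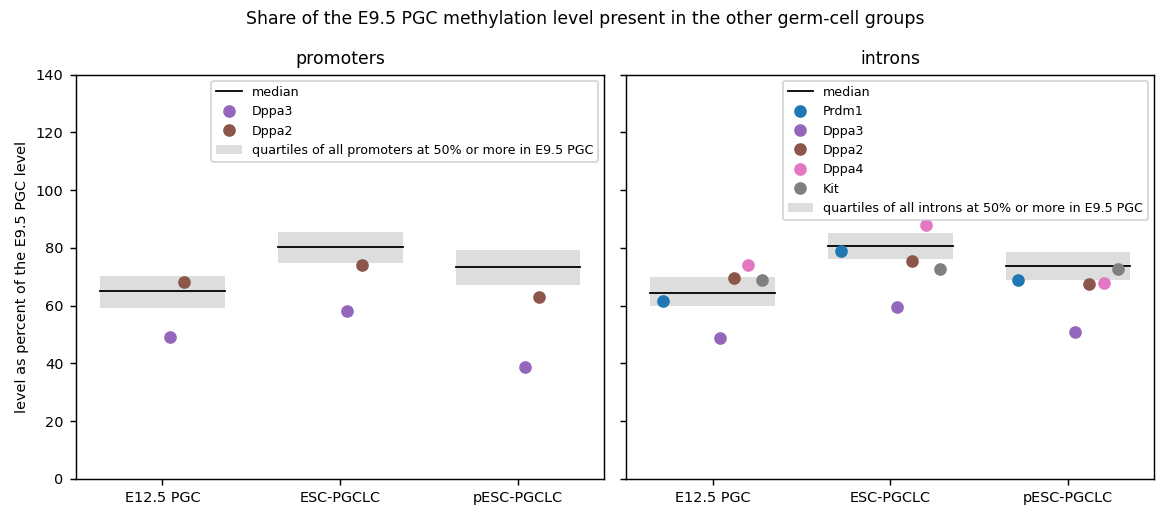
Level as a percentage of the E9.5 PGC level (vertical axis) in each of the 3 other germ cell groups (horizontal axis), for promoters (left) and introns (right); grey boxes are quartiles and lines medians of all promoters or introns at 50% or more in E9.5 PGCs, and points are members that reach that level. The Dppa3 promoter lies below the grey box in each group, at 49.2% in E12.5 PGCs and at 58.2% and 38.7% in the PGCLCs from ESCs and pESCs.

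Induction in culture was asked about next, with each kind of PGCLC set against the line it came from. In ESC-PGCLC against ESC, 9 of 18 member parts were called, all higher, beside 13.7% of all features called higher, and the median member difference was 15.0 points beside 1.26. In pESC-PGCLC against pESC, 8 of 18 were called, all higher, beside 8.91%, with medians of 10.3 and 0.566 points. Of introns alone, 19.4% for ESCs and 10.8% for pESCs were called in either direction, with median differences of 4.84 and 2.02 points. The Dppa4 introns had the largest member difference from ESCs, 50.7 points (log2 odds 4.33 ± 0.43 SE, limma adjusted p = 0.000534), and 39.9 points from pESCs (limma adjusted p = 0.000810). The Dppa2 promoter was 48.0 points higher in ESC-PGCLCs (limma adjusted p = 7.90e-05) and 40.1 points higher in pESC-PGCLCs (limma adjusted p = 0.000168). The Dppa3 promoter was 36.7 points higher (limma adjusted p = 0.000137) and 23.9 points higher (limma adjusted p = 0.000368) in the same order. Prdm1 and Prdm14 introns were called higher in both, by 26.7 and 13.6 points from ESCs and by 17.9 and 12.6 points from pESCs. The Prdm1 call in pESC-PGCLCs (limma adjusted p = 0.0263) was lost when any 1 of the 4 libraries of the 2 groups was left out (adjusted p from 0.0730 to 0.166).

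The Kit promoter was the 1 part called in only the ESC line. It was 22.4 points higher in ESC-PGCLCs (limma adjusted p = 0.0180, and 0.0758 or 0.0997 without either ESC-PGCLC library) and 14.4 points higher in pESC-PGCLCs (limma adjusted p = 0.144), and the interaction for it was -8.01 points (limma unadjusted p = 0.234, adjusted p = 1). Whether the 2 inductions differed was tested by their interaction, which called 0 of 18 member parts and 0.0365% of all features. At an unadjusted p under 0.05 the limma interaction also gave 0 member parts, and 4053 (2.96%) of all features.

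**Figure D5:**
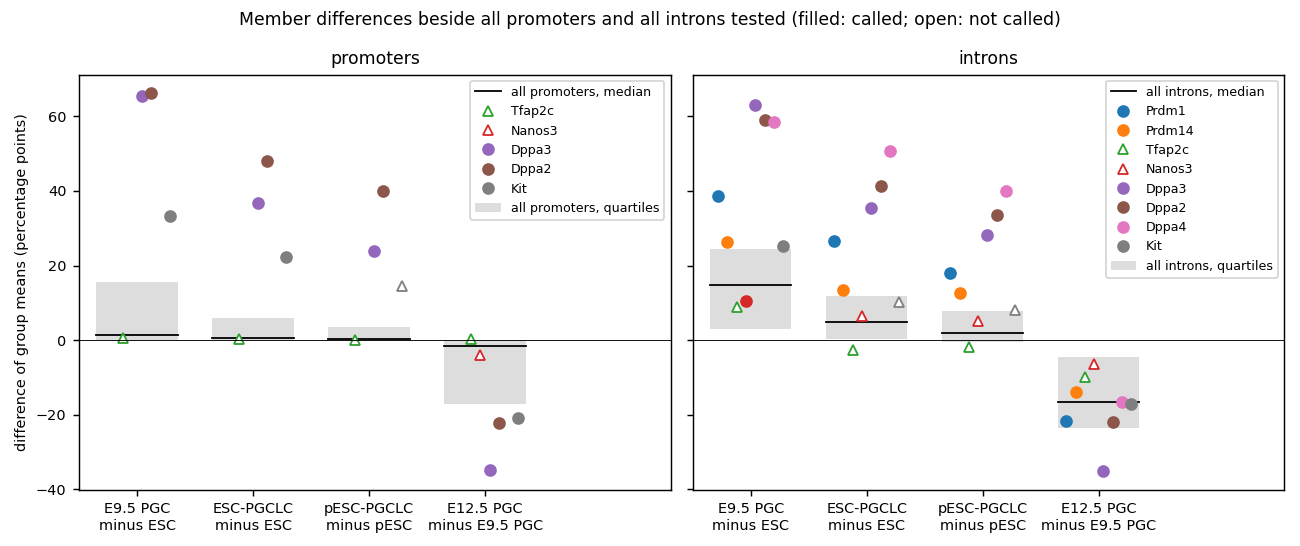
Difference of group means in percentage points (vertical axis) for member promoters (left) and introns (right) in 4 comparisons (horizontal axis); grey boxes are quartiles and black lines medians of all promoters or introns tested, filled circles are called members and open triangles members not called. Dppa3, Dppa2 and Dppa4 lie above the boxes in the 3 comparisons with stem cells, up to 66.1 points, and the Tfap2c promoter lies near 0 in each.

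PGCLCs were then compared with PGCs of each day. Against E9.5 PGC, ESC-PGCLCs had 8 of 19 member parts called, all lower, beside 29.6% of features called lower. In pESC-PGCLCs 11 of 19 were called, all lower, beside 40.2%. Of introns alone, 43.1% and 55.4% were called in either direction, in the same order. The Dppa3 promoter differed by -28.6 points in ESC-PGCLCs (limma adjusted p = 0.000803) and by -42.0 points in pESC-PGCLCs (limma adjusted p = 0.000258), the largest member difference in both. With libraries centred on their medians 5 and 4 of these calls remained, all in Dppa3 and Dppa2, and centred on their median deviations 8 and 7. Without E9.5 PGC 2 or pESC-PGCLC 2 the Kit promoter and the Prdm1 introns lost their calls in pESC-PGCLCs (adjusted p from 0.0570 to 0.122), and the Prdm1 exons lost theirs without E9.5 PGC 1 (0.0582) or pESC-PGCLC 1 (0.0693).

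Against E12.5 PGC, 8 of 19 member parts of ESC-PGCLCs had an unadjusted limma p under 0.05, beside 44.5% of all features, and 3 had an adjusted p under 0.05 with a difference under 10 points. The exons of Prdm1 read 37.1% and 46.4% for ESC-PGCLC, beside 23.7% and 22.7% for E12.5 PGC, a difference of 18.6 points (log2 odds 1.21 ± 0.20 SE, limma adjusted p = 0.00668). This was the 1 call of 19, beside 22.2% of all features called higher. It was lost when the fit took in all 12 libraries or when libraries were centred on their medians. pESC-PGCLC against E12.5 PGC called 0 of 19 member parts by limma, beside 7.10% of all features called, and 2 had an unadjusted p under 0.05, beside 30.8% of all features. The Dppa3 promoter of pESC-PGCLCs differed by -7.21 points from that of E12.5 PGCs (limma adjusted p = 0.0618). These comparisons share libraries, so their counts are not independent of each other.

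The last comparison was by origin. pESC against ESC called 0 of 18 member parts and 0 of 148012 features by limma. At an unadjusted limma p under 0.05 there were 0 member parts and 2054 features (1.39%). The ESC libraries lay farther apart than those of any other group, and 0 calls do not show equal levels. By RRBS the paper reports higher methylation of paternally expressed imprinted genes in pESCs than in ESCs. The largest promoter difference among the members was that of Kit, at 3.92 points with an SE of 0.43 on a log2 odds difference of 0.42. pESC-PGCLC against ESC-PGCLC called 0 of 19 member parts, beside 0.0948% of all features called, and 5 had an unadjusted limma p under 0.05, beside 19.4% of all features. The Dppa3 promoter differed by -13.4 points in pESC-PGCLCs (log2 odds -0.86 ± 0.13 SE, limma adjusted p = 0.0986) and the Dppa4 introns by -12.7 points (limma adjusted p = 0.122). The libraries of the 2 groups did not overlap in either part, nor in some other member parts. Among those were the Dppa2 promoter (53.9% and 49.6% against 45.1% and 42.7%) and the Prdm1 exons (37.1% and 46.4% against 27.4% and 31.0%). The share of all features without overlap was not counted. The library means over all features did not overlap either, at 29.6% and 29.5% in ESC-PGCLCs against 27.6% and 27.2% in pESC-PGCLCs. The Dppa3 promoter and the Dppa4 introns passed the threshold with a larger offset in the log odds (limma adjusted p = 0.0414 and 0.0498). They also passed it on untransformed levels (limma adjusted p = 0.0250 and 0.0376). The Dppa3 exons, with 30.8% and 30.7% against 34.7% and 29.3%, overlapped between these groups.

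Promoters whose 6 group means lay nearest to those of a member were named by the smallest root mean square difference over the 6 means. For Dppa3 these were Zfp42 at 2.29 points, Fsbp at 3.36 and 9430065F17Rik at 3.44, and 10 of the 18455 other promoters lay within 5 points. For Dppa2 they were Gm45217 at 1.05 points, Gm24976 at 1.42 and Gm47873 at 1.78, with 87 promoters within 5 points. For Kit they were Gm10648 at 1.40 points, Edn1 at 1.56 and Snx30 at 1.71, with 179 within 5 points. The Zfp42 promoter had mean levels of 2.22% in ESCs, 64.6% at E9.5 and 30.8% at E12.5, and of 39.3% and 28.9% in the PGCLCs from ESCs and pESCs. Ranking by Pearson correlation in place of the difference returned 0 of the same 3 promoters for each member. All these promoters share the same 12 libraries and their overall levels.

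Other genes around the members were taken from 2 lists. Of 34 signalling genes and cofactors of germ cell specification, 28 had a promoter tested in E9.5 PGC against ESC, and 3 were called, all higher, beside 31.7% of all promoters called in either direction. The median difference was 0.402 points, beside 1.33 over all promoters. The 3 were Dppa5a, a pluripotency marker (2.71% ± 0.0787 SD in ESCs and 82.6% ± 0.483 in E9.5 PGCs, n = 2), Tcl1, a cofactor of Akt signalling (2.21% ± 2.21 and 73.2% ± 1.39), and Pecam1, an adhesion molecule of stem and germ cells (8.66% ± 1.67 and 64.6% ± 0.766). The same 3 were the only calls among 29 promoters tested in E12.5 PGC against E9.5 PGC, beside 32.2% of all promoters. Their differences were -31.6, -21.6 and -16.6 points in the order named (limma adjusted p = 8.36e-05, 0.000576 and 0.00853). With libraries centred on their medians Pecam1 turned (log2 odds 0.15) and Tcl1 lost its call (adjusted p = 0.251), and Pecam1 also lost it without E12.5 PGC 1 (limma adjusted p = 0.0503).

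The second list held 20 late germline genes, most of which are switched on once germ cells are in the gonad. Of its 13 promoters tested, 11 were called in E9.5 PGC against ESC, all higher, beside 31.7% of all promoters called in either direction. The median difference was 47.0 points, beside 1.33 over all promoters. The largest differences were those of Ddx4 (Vasa, an RNA helicase of germ cells) at 61.1 points, Asz1, which acts in the piRNA pathway, at 60.8 and Piwil2, a piRNA-binding protein, at 57.1. In E12.5 PGC against E9.5 PGC 11 of 13 were called, all lower, beside 32.2% of promoters, with a median of -23.5 points. Asz1 differed by -28.4 points, Sycp1, a protein of the synaptonemal complex, by -27.0 and Ddx4 by -26.3. In ESCs Ddx4 had 11.5% ± 2.19 (SD, n = 2) and Asz1 26.9% ± 10.5, beside 3.08% ± 0.752 in Dppa3 and 3.67% ± 0.531 in Dppa2. In PGCLCs against their own line 8 of 13 were called higher for each origin, beside 12.9% of promoters for ESCs and 9.23% for pESCs, with medians of 31.1 and 26.2 points.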

How the data were processed

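RRBS levels of 12 mouse libraries, 2 in each of 6 groups named by the sample titles, were used. Per the submitters' processing notes, reads were aligned to mm10 with Bismark 0.16.3 and Bowtie2, and the authors deposited for each library a methylation fraction per annotated feature (methylated CG calls over all CG calls). The coverage minimum and promoter definition were not given in the sources used here, and no counts came with the levels, so depth is unknown, no counting interval was computed and the count-based test planned for counts was not used. Of 30073 gene identifiers 30060 were found in GENCODE M21, which gave names and gene spans.

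The members and gene lists were chosen with earlier results of these data known. The 12 comparisons used limma 3.58.1 (R 4.3.3) on the log2 odds of the level, with 0.01 added to the methylated and to the unmethylated fraction, over every feature with a level in each library of the fit, and Benjamini-Hochberg adjustment. A call needed an adjusted p under 0.05 and 10 points. pESC against ESC used 4 libraries, comparisons among PGCs and PGCLCs 8, those of PGCLCs with their lines 8, and those of PGCs with ESCs all 12. Stated errors are SDs of 2 libraries or SEs of limma. An exact permutation test of 2 against 2 cannot go below 0.333 and was not used. The step was tested on simulated levels. Named list promoters were the 3 with the largest called differences in each direction, likeness was taken for members whose group means spanned 20 points or more, and islands and shores within 2 kb of a member were described. The share of the E9.5 level and the promoter pattern counts were chosen after the levels were seen. Alternatives covered the offset, transformation, centring, features fitted, libraries fitted, size threshold, replicate block and each library left out. Tables and plots used Python 3.11.15, pandas 2.3.3, numpy 2.4.6 and matplotlib 3.10.9, and promoter windows are from RefSeq (GRCm38.p6).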

Additional observations from a re-analysis of the deposited data

How the results depend on the processing

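The counts of called member parts were recomputed under 218 alternatives over 12 comparisons, and 192 stayed within 1.5 times the reported count. The 218 include comparisons with a reported count of 0 and refits that left out a library outside the comparison, so 192 says little about the other counts. With libraries centred on their medians the counts were 3 in E12.5 PGC against E9.5 PGC, 7 in E9.5 PGC against ESC, 5 in ESC-PGCLC and 4 in pESC-PGCLC against E9.5 PGC and 0 in ESC-PGCLC against E12.5 PGC, and the log2 odds turned in the introns of Dppa4 (0.16), Kit (0.14) and Prdm14 (0.031), the 3' untranslated region of Tfap2c (0.014) and the Pecam1 promoter (0.15) in E12.5 PGC against E9.5 PGC, and in the Kit introns (-0.36), Prdm1 exons (-0.67) and Tfap2c exons (-0.50) in E9.5 PGC against ESC. This takes out 1.85 log2 odds in E9.5 PGC against ESC and -1.12 in E12.5 PGC against E9.5 PGC, beside median differences over all features of 0.68 and -0.86. With libraries centred on their median deviations from the feature means, chosen after seeing the data, which takes out 0.78 and -0.85, 0 directions turned and the counts were 5 in E12.5 PGC and 7 in pESC-PGCLC against E9.5 PGC, and the Kit promoter lost its call against ESC in E12.5 PGC (limma adjusted p = 0.0575) and in ESC-PGCLC (0.0525). Promoters alone, with 4 or 5 members tested, gave 3 calls in E12.5 PGC against E9.5 PGC, 3 in E12.5 PGC and 3 in E9.5 PGC against ESC, 3 in ESC-PGCLC against ESC, 3 in pESC-PGCLC and 2 in ESC-PGCLC against E9.5 PGC, 2 in pESC-PGCLC against pESC and 0 in ESC-PGCLC against E12.5 PGC. A threshold of 20 points gave 7, 3, 5 and 0 calls in E12.5 PGC, ESC-PGCLC and pESC-PGCLC against E9.5 PGC and in ESC-PGCLC against E12.5 PGC. The last comparison gave 4 calls with no size threshold, 0 with all 12 libraries in the fit and from 1 to 2 when each library was left out. pESC-PGCLC against ESC-PGCLC gave 2 calls with an offset of 0.1 and 2 on untransformed levels. Of 116 single called results of members, the Prdm1 shore and list promoters, 104 kept their call when each library was left out and 0 turned. Over every alternative, the 20-point threshold and both centrings among them, 69 of the 116 kept their call. The labels do not say whether same-numbered libraries share a culture or litter. Same-numbered libraries deviated together by correlations from -0.060 to 0.518. The highest was between ESC and pESC, a comparison whose main fit had no replicate block, and the next was 0.183, between E9.5 PGC and ESC-PGCLC. With the numbers as a replicate block the counts stayed within 1.5 times, with 1 call lost (Kit promoter, E12.5 PGC against ESC, limma adjusted p = 0.0550) and 1 gained (Prdm1 introns, ESC-PGCLC against E9.5 PGC, 0.0370). Matching identifiers through a symbol table gave the same 7 members with a promoter level. Ranking likeness by Pearson correlation shared 0 of 3 promoters for Dppa3, Kit and Dppa2. With limits of 30% or 65% at E9.5, chosen after seeing the data, 9.67% or 5.17% of promoters kept a smaller share than Dppa3 at E12.5. The depth behind each level is unknown.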

Other observations

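A shore within 2 kb of Dnd1 was listed in pESC 1 alone, at 87.5%. A shore of Nanos3 had 8.66% and 8.64% in E9.5 PGCs and 3.88% and 3.16% in E12.5 PGCs, beside 1.54% and 1.79% in ESCs. In pESC 1, the library with the most listed features, the Kit exons had 1.28% and the Kit 5' untranslated region 1.97%, levels that no other library listed.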
